A study of Arabidopsis thaliana with 5 samples.

Results

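The ethylene response factors (ERFs) described here are the Arabidopsis thaliana genes that the deposited tables name ERF followed by a number and at most 1 letter, leaving out AT1G06160, AT1G72360 and AT2G47520; 78 of 33557 genes per table met this rule, which used no expression value. RNA was profiled in roots of the wild type Col-0 (3 libraries) and of plants labelled GFP-GrxS5 (2 libraries), to find genes that GrxS5 represses. GrxS5 is a glutaredoxin, a small redox protein of a plant-specific class with members that bind TGA transcription factors, and the label joins it to green fluorescent protein. The labels give no promoter for the fusion, no plant age or growth condition, and no count of independent lines, and whether each library had its own plants is not stated, so the p-values rest on a spread between libraries that may be technical. GrxS5 itself (AT4G15690) read 3.06, 4.14 and 3.23 FPKM (fragments per kilobase of gene, scaled to library depth) in Col-0, against 103 and 124 FPKM in GFP-GrxS5 roots.

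ERF proteins carry a single AP2 domain that binds DNA, and the family has a DREB branch, whose best known members act in drought and cold, and an ERF branch, whose members bind the GCC box of defence genes. Ethylene acts through the EIN3 class of transcription factors, which switch on ERF1B, and jasmonate, wounding and microbial signals reach other members within minutes. Group VIII of the ERF branch holds repressors with an EAR motif, while group IX holds activators of defence genes and a few repressors. In roots, members are known for lateral root formation, for regeneration after wounding and for defence.

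Library depth, estimated from the value of a single fragment in low genes at reference gene lengths, was 3270000 to 4320000 fragments. By this estimate, 1 FPKM on a gene of 1 kb rests on about 3.27 to 4.32 fragments. Pearson correlations of log2(FPKM + 1) across tested genes were 0.975 to 0.979 within a genotype and 0.96 to 0.965 between them (genes are not independent replicates). Root identity genes such as SHR, SCR and CASP1 were present in every library. Of these 12 genes 0 passed the test in either direction, beside 7.08% of all tested genes (limma; 1 higher and 2 lower at an unadjusted p under 0.05). Both GFP-GrxS5 libraries lay above all Col-0 libraries in 2 of them, CASP1 and MYB36, and below in 3, PLT1, PLT2 and GL2 (beside 22.6% and 20.3% of all genes). The log2 change of PLT1 was -0.602 (limma, adjusted p = 0.0564). Shoot photosynthesis markers were also present and higher in GFP-GrxS5. Their summed level was 755 to 895 FPKM in Col-0 and 1744 to 1752 in GFP-GrxS5, and no marker was listed at 0 in all libraries. Of 16 tested markers 14 rose, beside 4.73% of all tested genes. Among removals of a single Col-0 library, each ended the calls of LHCB1.2 and LHCA1, and that of replicate 1 or 3 ended the call of RBCS1B. Removing a GFP-GrxS5 library leaves 1 in that group, so whether the 14 calls hold there is not counted here. Without GFP-GrxS5 replicate 1 the log2 change was 0.471 for LHCB1.2, 0.707 for GAPB, 0.632 for LHCA3 and 1.05 for PSAF. Without replicate 2 it was 0.415 for LHCA1, 0.668 for LHCA3 and 1.01 for PSAF. More shoot-type cells and more of this RNA per cell cannot be told apart in bulk roots, and the part of these transcripts in the ERF values was not tested. The library kit and sequencer, of which the labels name 2 each without saying which library had which, cannot be told apart from the genotype.

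ERF106, ERF107 and ERF15, all of group IX, were the members that passed the test, and all were higher in GFP-GrxS5 roots. The 250 bases before their start are shown because these genes passed the test in the same direction. Those of ERF104, the neighbour of ERF107, are shown for comparison. The sequences are read 5′ to 3′ from TAIR10.1, credited to RefSeq, and end at the base before the outermost annotated start. They lie at chr5:2399254-2399503 on the plus strand for ERF106, at chr5:24765512-24765761 on the minus strand for ERF107, at chr2:13307573-13307822 on the minus strand for ERF15 and at chr5:24767733-24767982 on the minus strand for ERF104. Capitals mark matches, on either strand, to the core bound by TGA factors (TGACG), the GCC box core (GCCGCC), the W-box core bound by WRKY factors (TTGAC), the G-box (CACGTG) and the core of the dehydration-responsive element (CCGAC).
ERF106: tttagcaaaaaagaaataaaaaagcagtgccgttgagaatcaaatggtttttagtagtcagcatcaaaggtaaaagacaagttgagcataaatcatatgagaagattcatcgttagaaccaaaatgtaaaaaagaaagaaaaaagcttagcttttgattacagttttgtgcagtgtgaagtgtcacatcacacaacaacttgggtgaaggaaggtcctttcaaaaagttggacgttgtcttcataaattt
ERF107: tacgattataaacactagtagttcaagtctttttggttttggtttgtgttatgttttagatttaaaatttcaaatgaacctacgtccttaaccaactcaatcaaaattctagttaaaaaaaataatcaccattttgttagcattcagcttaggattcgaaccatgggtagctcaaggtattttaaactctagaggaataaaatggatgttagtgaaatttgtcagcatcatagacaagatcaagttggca
ERF15: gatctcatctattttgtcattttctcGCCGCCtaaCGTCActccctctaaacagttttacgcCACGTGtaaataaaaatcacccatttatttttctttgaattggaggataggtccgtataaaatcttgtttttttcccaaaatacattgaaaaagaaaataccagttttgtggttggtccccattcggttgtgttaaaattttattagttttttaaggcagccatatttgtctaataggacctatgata
ERF104: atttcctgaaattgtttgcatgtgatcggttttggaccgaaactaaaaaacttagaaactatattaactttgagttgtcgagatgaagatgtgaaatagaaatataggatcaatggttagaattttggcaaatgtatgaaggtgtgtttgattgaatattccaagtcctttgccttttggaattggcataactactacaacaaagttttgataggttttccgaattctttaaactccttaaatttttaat

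The ERF15 window held a GCC box core from 224 to 219 bases before the start, a TGA core on the reverse strand from 215 to 211 and a G-box from 188 to 183. The windows of ERF106, ERF107 and ERF104 held no match to any of the motifs searched. The TGA core stood in the same window of 20 of 78 members (25.6%) and of 4963 of 26689 protein-coding genes (18.6%), and among the 16 group IX members it stood in 6. The GCC box core stood in 2 members (2.6%) and in 1.9% of all genes, the W-box core in 44 members (56.4%) and in 45.0% of all genes, where TTGACG counts for the TGA core and the W-box core alike. The G-box stood in 10 members (12.8%), 5 of them in group IX, and in 6.6% of all genes, and the CCGAC core in 10 members (12.8%) and in 11.9% of all genes. A match is a run of letters and not a bound site.

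Most members were low in roots. The mean over the 5 libraries was at least 10 FPKM in 19 members, from 1 to under 10 in 30, and below 1 in 17, and 12 members were listed at 0 in every library. The last were ERF016, ERF021 and ERF024 of the DREB branch, ERF095 and ERF096 of group IX, ERF117 of group VI-L, ERF110, ERF114 and ERF115 of group X, and ERF120, ERF121 and ERF122 of group Xb-L. ERF115 is known for divisions of the root stem cell niche and for regeneration after wounding, and ERF114 for bud outgrowth. The 10 highest members were ERF107, ERF055, ERF106, ERF104, ERF034, ERF4, ERF3, ERF008, ERF5 and ERF7, with means from 71.3 FPKM down to 21.8 FPKM; 4 of them belong to group IX, 3 to the DREB branch and 3 to group VIII.

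Of the 78 members 54 reached 1 FPKM in at least 2 libraries and were tested with all other such genes. Of those, 3 were higher in GFP-GrxS5 at a Benjamini-Hochberg adjusted p under 0.05 (limma), beside 4.73% of all 19693 tested genes, and 0 were lower, beside 2.35% (7.08% in either direction). The higher members make up 5.56% of the tested members, a share near that of all genes. At an unadjusted p under 0.05, 6 members were higher and 2 lower, beside 14.1% and 10.2% of all genes. The median log2 change was 0.087 over the 54 members and 0.013 over all tested genes. In 10 members both GFP-GrxS5 libraries lay above all Col-0 libraries (18.5%, beside 22.6% of all genes), and in 3 they lay below (5.56%, beside 20.3%; 42.8% of all genes had separate groups in either direction). ERF027, ERF053 and ERF14 reached the minimum only in Col-0 and ERF087 only in GFP-GrxS5, so that for these 4 the filter itself favoured a difference.

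**Figure D1:**
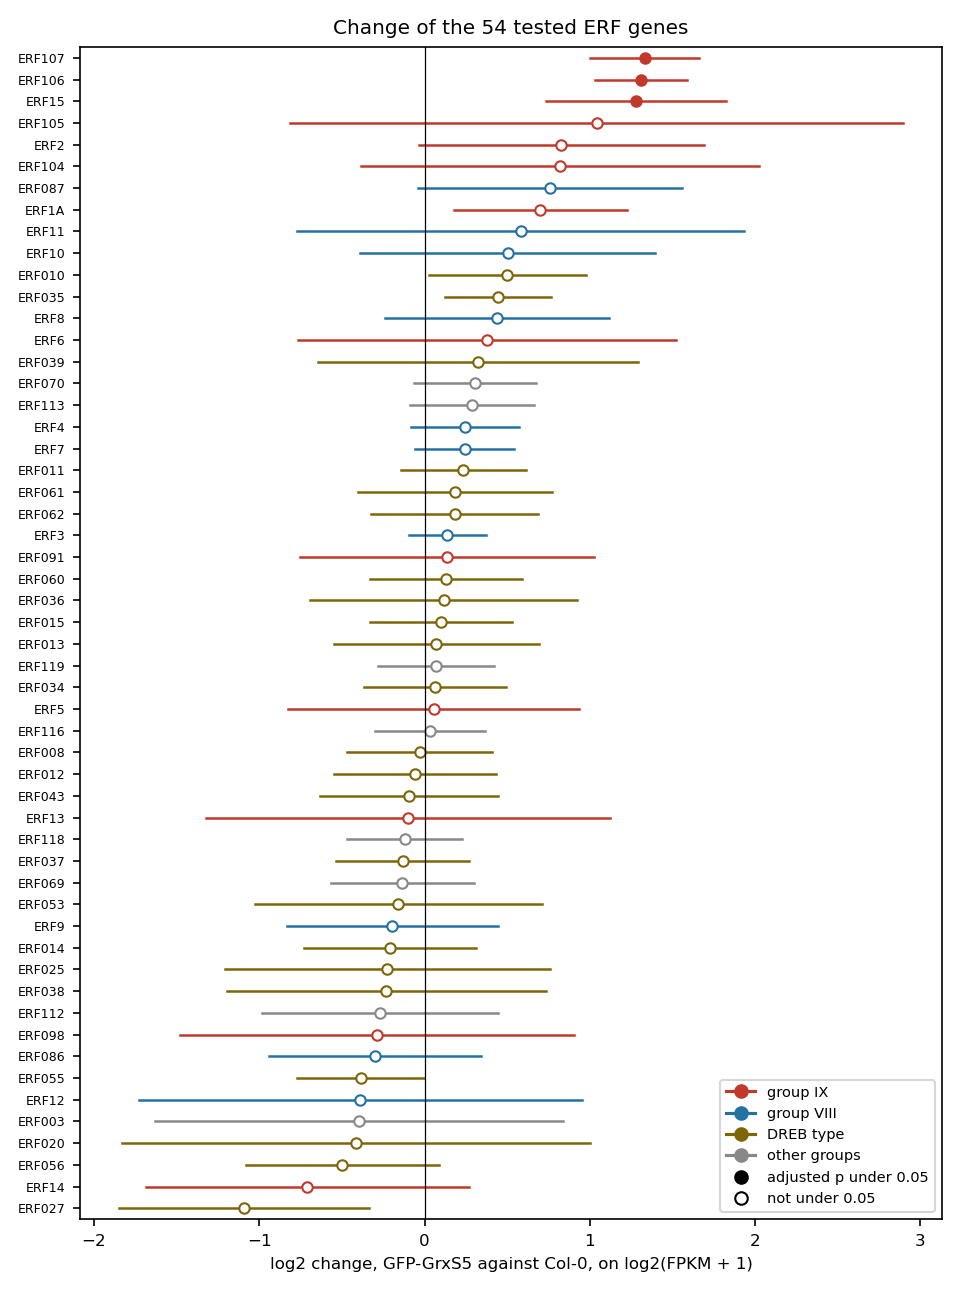
Log2 change (GFP-GrxS5 against Col-0, on log2(FPKM + 1)) of the 54 tested ERF genes, with the 95% interval from limma as a line; colours give the group, and filled points have an adjusted p under 0.05. The 3 filled points are ERF107, ERF106 and ERF15, at 1.33, 1.31 and 1.28, and the lowest point is ERF027 at -1.09. ERF027 reached the minimum for testing only in Col-0.

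ERF106 and ERF107, also known as DEWAX2 and DEWAX, are close relatives that repress genes of cuticular wax synthesis in leaves and stems. ERF106 (chromosome 5, 2399504 to 2400601) read 29.5, 36.8 and 37.1 FPKM in Col-0, against 82.0 and 91.4 FPKM in GFP-GrxS5. The groups lay far apart, with the lowest GFP-GrxS5 library above the highest Col-0 library by more than the range within either group. The change was 1.31 on the log2 scale (SE 0.12, 95% interval 1.03 to 1.59; limma, adjusted p = 0.00178).

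ERF107 (chromosome 5, 24764438 to 24765324) had the highest mean over the 5 libraries, which its GFP-GrxS5 values raise; in Col-0 the means of ERF055 and ERF034 (68.8 and 50.9 FPKM) were above its own of 43.9. It read 39.5, 50.9 and 41.4 FPKM in Col-0, against 125.6 and 98.9 FPKM in GFP-GrxS5. Again every GFP-GrxS5 library exceeded every Col-0 library, with the greater value in GFP-GrxS5 replicate 1. The change was 1.33 (SE 0.14, 95% interval 1.003 to 1.66; limma, adjusted p = 0.00307). Leaving out any single library kept both calls, with ERF106 between 1.21 and 1.39 and ERF107 between 1.16 and 1.503. With both libraries numbered 1 left out, which leaves 3 libraries, ERF106 kept its call (1.28; limma, adjusted p = 0.0442) and ERF107 did not (1.09; limma, adjusted p = 0.0872).

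The reported targets of DEWAX, a list added after the values of ERF106 and ERF107 had been seen, were looked at beside them. Of 5 genes 4 were tested and 0 passed in either direction, beside 7.08% of all tested genes (limma; 0 at an unadjusted p under 0.05). Their log2 changes ran from -0.142 to 0.073. The alkane synthesis gene CER1 read 3.04, 2.80 and 3.54 FPKM in Col-0, against 3.22 and 2.3 in GFP-GrxS5. The acyl-CoA synthetase gene LACS2 read 15.0, 17.7 and 20.2 FPKM in Col-0, against 18.3 and 17.8 in GFP-GrxS5. In both genes the groups overlapped.

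ERF15 (chromosome 2, 13306593 to 13307475), an activator of abscisic acid responses and of immunity, read 4.74, 4.81 and 2.82 FPKM in Col-0, against 12.8 and 9.83 FPKM in GFP-GrxS5. The groups were separate. At a reference length of 1142 bp the values rest on roughly 13 to 23 fragments a library in Col-0 and 37 to 63 in GFP-GrxS5. The gene is shorter in the deposited coordinates, so these fragment numbers may be too high. The change was 1.28 (SE 0.23, 95% interval 0.73 to 1.82; limma, adjusted p = 0.0206). The call was lost without GFP-GrxS5 replicate 1 or replicate 2 (limma, adjusted p = 0.134 and 0.0806) without a variance trend (0.0543) and without both libraries numbered 1 (0.199); over all alternatives the adjusted p (limma) ran from 0.02 to 0.199.

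The other tested members of group IX did not pass, and several of them spread widely within each genotype. ERF1A, an activator at the GCC box, read 10.7, 19.3 and 16.2 FPKM in Col-0, against 23.1 and 27.0 in GFP-GrxS5. Its groups were separate, with a change of 0.701 (95% interval 0.178 to 1.22; limma, adjusted p = 0.109). ERF2, also an activator at the GCC box, read 1.33, 3.70 and 3.93 FPKM in Col-0, against 4.36 and 7.40 in GFP-GrxS5. These groups were separate as well, at 0.828 (95% interval -0.0341 to 1.69; limma, adjusted p = 0.222).

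ERF104, a substrate of the kinase MPK6 in responses to bacterial flagellin, read 18.2, 48.1 and 53.9 FPKM in Col-0, against 40.2 and 103.8 in GFP-GrxS5. ERF105, known from cold responses, read 2.24, 13.7 and 10.5 FPKM in Col-0, against 6.56 and 36.5 in GFP-GrxS5. In both genes Col-0 replicate 1 was the lowest library, GFP-GrxS5 replicate 2 the highest, and the groups overlapped. The highest Col-0 library exceeded the lowest 2.96-fold for ERF104 and 6.13-fold for ERF105, and the GFP-GrxS5 libraries differed 2.58-fold and 5.56-fold. The changes were 0.82 (95% interval -0.385 to 2.02) and 1.04 (95% interval -0.813 to 2.89; limma, adjusted p = 0.372 and 0.466), so that neither a rise like that of ERF107 nor a small fall lies outside the intervals. Without Col-0 replicate 1 the value for ERF104 was 0.342, without GFP-GrxS5 replicate 2 it was 0.147 and without GFP-GrxS5 replicate 1 it was 1.49.

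ERF5 and ERF6, activators that act in defence and in leaf growth under osmotic stress, had the same order of libraries at the low end. ERF6 read 6.47, 17.8 and 14.7 FPKM in Col-0, against 9.34 and 26.7 in GFP-GrxS5 (log2 change 0.379; limma, adjusted p = 0.682). ERF5 read 12.7, 25.3 and 32.8 FPKM in Col-0, against 17.6 and 29.8 in GFP-GrxS5 (0.0567; limma, adjusted p = 0.945), with a sign that changed between alternatives. Col-0 replicate 1 was the lowest library for both genes, and the groups overlapped.

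**Figure D2:**
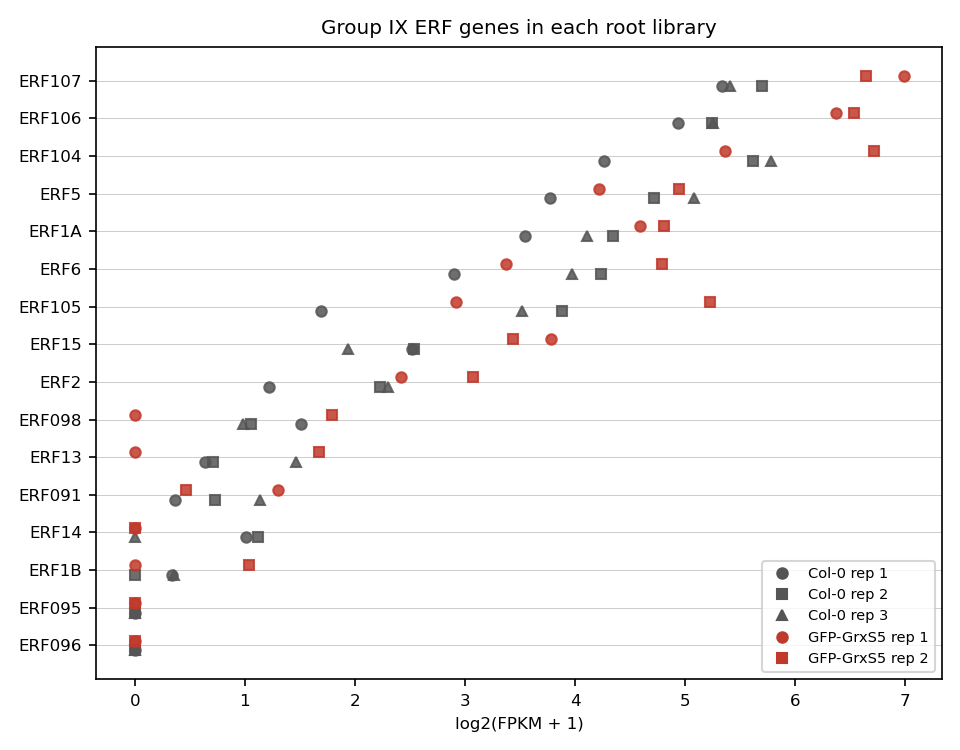
Level of the 16 group IX genes on log2(FPKM + 1), 1 point per library, with Col-0 in grey, GFP-GrxS5 in red and the replicate number by symbol, ordered by mean level. ERF107, ERF106 and ERF15 have both red points to the right of all grey points at a distance, while ERF104, ERF105, ERF5 and ERF6 have replicate 1 of each genotype at the left of their range.

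The remaining group IX members were low. ERF1B, which integrates ethylene and jasmonate signals, read 0.266, 0 and 0.281 FPKM in Col-0, against 0 and 1.06 in GFP-GrxS5 and stayed below the minimum for testing. ERF14, also placed in defence, read 1.01, 1.17 and 0 FPKM in Col-0 and was listed at 0 in both GFP-GrxS5 libraries (limma, adjusted p = 0.342). It reached the minimum for testing only in Col-0. ERF13, ERF091 and ERF098 had means of at most 1.27 FPKM and overlapping groups. These levels rest on a few fragments a library.

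Several group IX genes lie beside each other in the genome. ERF107 and ERF104, on the same strand of chromosome 5, are 1061 bp apart in the files' coordinates. ERF107 had separate groups and ERF104 did not, as given above. ERF6 and ERF1A, 5457 bp apart on chromosome 4, and ERF5 and ERF2, 7115 bp apart on chromosome 5, are on opposite strands. In each of these pairs the first gene had overlapping and the second separate groups, and no difference between neighbours was tested.

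The libraries with low and high values of these members were also those with low and high values of genes known to react quickly to wounding and touch, such as ZAT10, WRKY40 and CML37. The summed level of 18 such genes was 206, 406 and 394 FPKM in Col-0 replicates 1 to 3 and 218 and 559 FPKM in GFP-GrxS5 replicates 1 and 2. In 17 of the 18 Col-0 replicate 1 was the lowest Col-0 library, beside 34.8% of all tested genes, and in 17 GFP-GrxS5 replicate 1 was below replicate 2, beside 54.1%. Of the 18 genes 0 passed the test between genotypes, beside 7.08% of all tested genes (limma; 1 higher and 0 lower at an unadjusted p under 0.05). Their median log2 change was 0.122. The 13 group IX genes other than ERF106, ERF107 and ERF15, a set formed after the values were seen, summed to 55.5, 131 and 136 FPKM in Col-0 and to 103 and 237 FPKM in GFP-GrxS5. Whether a wound or touch response took place in any library, and its part in the ERF levels, was not tested.

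**Figure D3:**
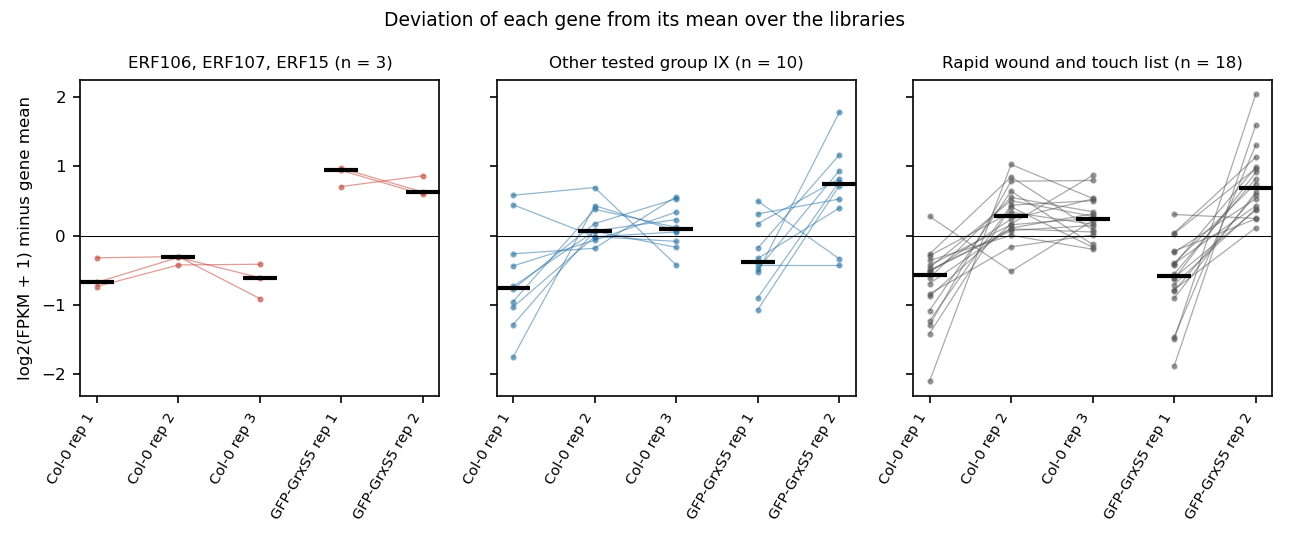
Log2(FPKM + 1) of each gene minus its mean over the 5 libraries, for the 3 called members, the 10 other tested group IX members and the 18 rapid wound and touch genes; thin lines join libraries of a genotype and bars are medians. The called members separate by genotype, and in the other panels the medians of replicate 1 of both genotypes lie below those of the other libraries.

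Group VIII includes the repressors ERF3, ERF4 and ERF7 to ERF12, which carry an EAR motif. Of its 12 members 10 were tested and 0 passed in either direction, beside 7.08% of all tested genes (limma; 0 at an unadjusted p under 0.05). Their median log2 change was 0.245. ERF4 read 30.5, 38.9 and 39.7 FPKM in Col-0, against 39.2 and 47.3 in GFP-GrxS5, and ERF3 read 38.0, 37.2 and 33.4 FPKM in Col-0, against 37.4 and 42.5 in GFP-GrxS5. Both had overlapping groups, and the 95% intervals of their changes, -0.0803 to 0.575 and -0.0963 to 0.372, exclude a doubling. ERF7, which acts in abscisic acid responses, read 20.0, 23.2 and 17.7 FPKM in Col-0, against 24.3 and 23.8 in GFP-GrxS5. Its groups were narrowly separate (0.243; limma, adjusted p = 0.29).

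The group VIII members of lower level varied more. ERF11 read 0.786, 7.0 and 3.88 FPKM in Col-0, against 3.76 and 6.95 in GFP-GrxS5, an 8.89-fold range within Col-0 with its lowest value in replicate 1. ERF8 read 3.39, 6.23 and 4.78 FPKM in Col-0, against 4.93 and 9.0 in GFP-GrxS5. ERF9 read 5.39, 4.35 and 2.72 FPKM in Col-0, against 4.08 and 2.80 in GFP-GrxS5, and ERF10 and ERF12 stayed at or below 3.10 FPKM in every library. The groups overlapped in all of these. ERF087 read 0, 0.437 and 0.796 FPKM in Col-0, against 1.16 and 1.5 in GFP-GrxS5, which is separate but did not pass (0.76; limma, adjusted p = 0.224). It reached the minimum for testing only in GFP-GrxS5. ERF086, known as PUCHI and needed for the outline of lateral root primordia, read 2.18, 2.53 and 2.84 FPKM in Col-0, against 1.2 and 2.67 in GFP-GrxS5.

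Of the 34 members of the DREB branch 23 were tested and 0 passed in either direction, beside 7.08% of all tested genes (limma; 2 higher and 2 lower at an unadjusted p under 0.05). The median log2 change of the tested DREB members was -0.029. ERF055, known as TRANSLUCENT GREEN and linked to aquaporin expression, was the highest of them. It read 85.5, 65.3 and 55.7 FPKM in Col-0, against 49.9 and 53.4 in GFP-GrxS5. The groups were separate by a narrow margin, and the change of -0.387 did not pass (95% interval -0.77 to -0.0029; limma, adjusted p = 0.202). ERF034 read 61.2, 53.4 and 38.0 FPKM in Col-0, against 49.6 and 54.9 in GFP-GrxS5, and ERF008 read 31.7, 29.1 and 19.9 FPKM in Col-0, against 24.8 and 26.9 in GFP-GrxS5. In both the GFP-GrxS5 values lay inside the Col-0 range.

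Among DREB members with separate groups, ERF027 had the lowest log2 change of any tested member. It read 2.1, 1.83 and 1.11 FPKM in Col-0, against 0.538 and 0 in GFP-GrxS5, a change of -1.09 that did not pass (95% interval -1.85 to -0.336; limma, adjusted p = 0.0915). ERF027 reached the minimum for testing only in Col-0, so the filter itself favoured a difference. Its values rest on an estimated 8, 6 and 4 fragments in Col-0, against 2 and 0 in GFP-GrxS5. ERF056 read 2.03, 1.5 and 2.34 FPKM in Col-0, against 0.945 and 1.22 in GFP-GrxS5 (-0.497; limma, adjusted p = 0.271). ERF035 was the DREB member with separate groups on the higher side, at 11.9, 11.7 and 13.6 FPKM in Col-0, against 15.4 and 19.2 in GFP-GrxS5 (0.446; limma, adjusted p = 0.101). ERF018, known as ORA47 and a regulator of jasmonate synthesis, stayed at or below 0.748 FPKM in every library.

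Of the 6 members of group X, ERF112 and ERF113 were tested and neither passed. ERF113, known as RAP2.6L and as a factor in tissue rejoining after cuts, read 7.15, 8.78 and 8.66 FPKM in Col-0, against 9.05 and 11.4 in GFP-GrxS5, separate groups at 0.286 (limma, adjusted p = 0.319). ERF109, which links jasmonate to auxin synthesis in lateral roots, read 0, 0.396 and 0.541 FPKM in Col-0, against 0 and 1.36 in GFP-GrxS5; its locus in the files is shared with another gene, as are those of ERF019 and ERF021. ERF070 of group VI, the group of cytokinin response factors, read 15.3, 16.5 and 11.8 FPKM in Col-0, against 16.8 and 19.3 in GFP-GrxS5 (0.305; limma, adjusted p = 0.281). Its groups were separate by a small margin.

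Genes that make ethylene were described beside the ERFs. Of 14 synthesis genes 10 were tested, 2 rose and 0 fell (limma, with 4 higher and 0 lower at an unadjusted p under 0.05). Over all tested genes 4.73% rose and 2.35% fell. The median log2 change of the synthesis genes was 0.25. ACO3 (AT1G12010), an ACC oxidase of the last step, read 52.0, 56.4 and 47.3 FPKM in Col-0, against 158 and 168 in GFP-GrxS5, a rise of 1.63 (SE 0.092; limma, adjusted p = 3.41e-04) that held without any single library. ACO4 read 26.6, 32.6 and 25.3 FPKM in Col-0, against 46.8 and 39.6 in GFP-GrxS5, a rise of 0.603 (limma, adjusted p = 0.0394). Leaving out Col-0 replicate 1, Col-0 replicate 3 or either GFP-GrxS5 library ended that call (limma, adjusted p between 0.0965 and 0.185; range over the alternatives 0.0307 to 0.299). ACS6, an ACC synthase gene, followed the library order of the quick genes, at 11.1, 27.2 and 23.2 FPKM in Col-0, against 11.2 and 33.3 in GFP-GrxS5 (0.019; limma, adjusted p = 0.987).

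Of 17 ethylene signalling genes, which include the receptors, CTR1, EIN2 and the EIN3 class, 16 were tested. Of those, 0 passed, beside 7.08% of all tested genes (limma; 2 higher and 2 lower at an unadjusted p under 0.05). Their median log2 change was -0.011, in a range from -0.464 to 0.526. Among 17 genes known as outputs of ethylene and ERF factors, 10 were tested. Of those, 3 rose and 0 fell, beside 4.73% and 2.35% of all tested genes (limma; 3 higher and 1 lower at an unadjusted p under 0.05). The lower gene was HLS1, at 1.47, 2.56 and 1.95 FPKM in Col-0, against 1.01 and 0.814 in GFP-GrxS5. Its groups were separate, and its change of -0.634 did not pass (limma, adjusted p = 0.192). PR4, a chitin-binding protein of defence, read 82.3, 117 and 95.4 FPKM in Col-0, against 281 and 227 in GFP-GrxS5, a rise of 1.37 (SE 0.15; limma, adjusted p = 0.0035) that held without any single library but not without both libraries numbered 1 (limma, adjusted p = 0.0759). PR3, a basic chitinase, read 28.1, 44.6 and 33.9 FPKM in Col-0, against 115 and 66.9 in GFP-GrxS5, a rise of 1.31 (limma, adjusted p = 0.0256). OSM34, an osmotin-like protein, read 79.3, 108 and 114 FPKM in Col-0, against 230 and 167 in GFP-GrxS5, a rise of 0.976 (limma, adjusted p = 0.0234). The removal of Col-0 replicate 1, Col-0 replicate 3 or GFP-GrxS5 replicate 1 ended the call of PR3 (limma, adjusted p between 0.0705 and 0.123; range over the alternatives 0.0209 to 0.178). OSM34 lost its call without either GFP-GrxS5 replicate (limma, adjusted p = 0.133 and 0.0529; range over the alternatives 0.019 to 0.133). The plant defensin genes PDF1.1, PDF1.2a, PDF1.2b, PDF1.2c and PDF1.3 were listed at 0 in every library.

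**Figure D4:**
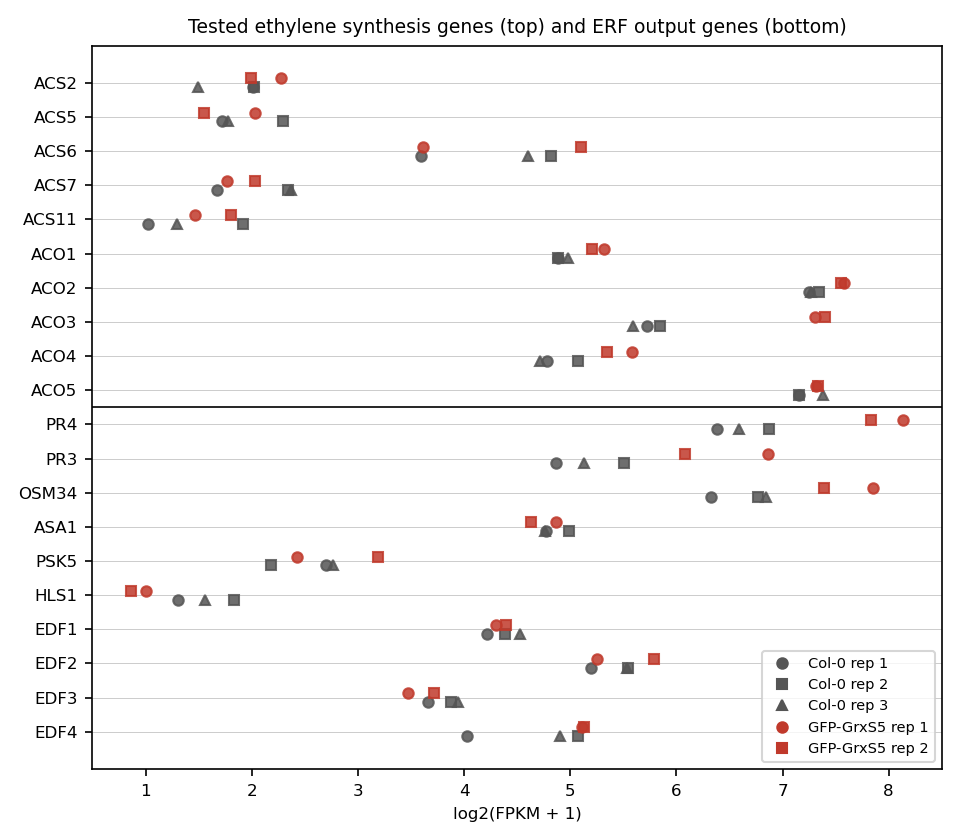
Level of the 10 tested ethylene synthesis genes (above the line) and the 10 tested output genes (below it) on log2(FPKM + 1), 1 point per library with colours and symbols for genotype and replicate number. ACO1 to ACO4, PR4, PR3, OSM34 and EDF4 have both GFP-GrxS5 points to the right of all Col-0 points, and of these ACO3, ACO4, PR4, PR3 and OSM34 passed the test. HLS1 has both GFP-GrxS5 points to the left of all Col-0 points and did not pass.

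Genes of the same family under other names were counted for comparison, and this list includes the 3 genes that the name rule leaves out. Of 37 genes 27 were tested, 7 rose and DREB2C alone fell, beside 4.73% higher and 2.35% lower of all tested genes. ORA59 and HRE1, which the name rule leaves out, are among the 7. The median log2 change was 0.254 in this list and 0.013 over all tested genes. Of these calls that of RAP2.2 alone held without any single library. Those of DREB2C, RAP2.12 and CRF6 were lost without any single library (limma, adjusted p between 0.0801 and 0.141, 0.0619 and 0.102, and 0.0527 and 0.172), and that of RAP2.1 without any but Col-0 replicate 3 (limma, adjusted p between 0.0771 and 0.184). RAP2.2, a factor of hypoxia responses, rose from 92.7 ± 1.91 FPKM (SD, n = 3) to 144 ± 5.42 (SD, n = 2; limma, adjusted p = 0.0032), and HRE1, another hypoxia factor, from 25.5 ± 2.37 to 46.9 ± 2.9 (limma, adjusted p = 0.00537). ORA59, the group IX activator of defensin genes, read 2.77, 4.18 and 1.76 FPKM in Col-0, against 11.6 and 9.18 in GFP-GrxS5, a rise of 1.59 (limma, adjusted p = 0.0178). The call of HRE1 was lost without GFP-GrxS5 replicate 1 (limma, adjusted p = 0.0584; range over the alternatives 0.00407 to 0.0995). That of ORA59 was lost without Col-0 replicate 1 or either GFP-GrxS5 replicate (limma, adjusted p between 0.0545 and 0.124; range over the alternatives 0.0148 to 0.225). RAP2.3, also a factor of hypoxia responses, read 32.4, 29.5 and 32.8 FPKM in Col-0, against 44.7 and 55.2 in GFP-GrxS5, a rise of 0.64 (limma, adjusted p = 0.0188). Its call was lost without Col-0 replicates 1 or 2 and without GFP-GrxS5 replicate 2 (limma, adjusted p = 0.0519, 0.0596 and 0.101; range over the alternatives 0.0151 to 0.101).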

How the data were processed

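RNA-seq libraries came from roots, 3 of Col-0 and 2 of GFP-GrxS5, grouped and numbered by their titles. Per the labels' protocols RNA was column-extracted from roots and shoots, and 1 µg was made into libraries with a TruSeq or an NEBNext Ultra II kit. The authors deposited an FPKM value for each of 33557 genes in every library. Per the submitters' processing notes the build was TAIR10, while which programs aligned and quantified the reads, how strand was used and how reads matching several genes were shared is, in the sources used here, not given. Gene lengths and sequences came from RefSeq TAIR10.1, in which 32804 of 32805 matched genes overlap the files' locus. Depth was the mode of FPKM times RefSeq length in low genes with a single transcript, so fragment numbers are estimates. The lengths behind the deposited FPKM can differ from those of RefSeq. ERF087 and ERF10 both read 0.437 FPKM in Col-0 replicate 2, but the estimate gave 1 and 2 fragments. Whole counts were not recovered, and no count model was fitted.

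A gene was tested where at least 2 libraries reached 1 FPKM and no library had a failed status, which left 19693 genes. The genotypes were compared on the log2(FPKM + 1) scale, which understates changes of low genes, by limma 3.58.1 in R 4.3.3 with a variance trend (two-sided; residual degrees of freedom 3, median prior 4.37), with Benjamini-Hochberg adjustment over all kept genes and a threshold of 0.05. Every adjusted p in the text is from this fit unless an alternative or a removed library is named beside it. Those of alternatives have the same adjustment over the genes kept there. On simulated data for this comparison with 19693 genes, 99 of 100 changes of 1 and 100 of 100 of 2 on the log2 scale were recovered, with 11 false calls. The simulated noise was normal, with a spread set by level alone. Changes were placed only in genes with a mean log2(FPKM + 1) above 2. The recovery does not cover lower genes, or genes that vary more than others of their level, such as ERF105. Family groups (DREB branch, groups V to X) were assigned by family number from background knowledge, not from the data.

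The members and gene lists were chosen with earlier results of these data known. Named were members past the threshold, the 10 highest, up to 5 members a direction with separate groups and the largest change, genes past the threshold in the lists (at most 4 a list) and members at 0 throughout; the others were named after their values were seen. The DEWAX target list, a GC and length correction and the removal of both libraries numbered 1 were added after the values were seen. Other alternatives were pseudocounts of 0.1 and 0.5, no filter, a minimum of 5 FPKM, quantile normalization, scaling by the median of ratios, no variance trend, a replicate block and leaving out each library.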

Additional observations from a re-analysis of the deposited data

How the results depend on the processing

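The count of 3 higher and 0 lower ERF members was 2 to 4 higher and 0 lower under every alternative except the removal of both libraries numbered 1, which left 1 higher member (ERF106). Over all genes 932 were higher and 462 lower. Without a variance trend 398 and 184 were, with the replicate block 418 and 176, and without both libraries numbered 1 57 and 54. Leaving out a single library gave 225 to 585 higher and 141 to 235 lower; where it left a single GFP-GrxS5 library, that library was assumed to vary like the Col-0 libraries. Of all calls 66.9% were higher, 54.9% (789 higher, 648 lower) with quantile normalization and 54.2% (723 and 612) with the GC and length correction. No scaling moved the median log2 change of all genes by over 0.1.

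Same-numbered libraries did not deviate together (correlations of deviations -0.039 and -0.008 for replicates 1 and 2), so the numbers are not taken as pairs. The replicate block, in which Col-0 replicate 3 has no partner, called 4 members, ERF104 (1.1; limma, adjusted p = 0.00705), ERF105, ERF106 and ERF107, and not ERF15 (1.08; limma, adjusted p = 0.0554).

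Of 266 values of the 18 named members under alternatives, 248 kept direction and side of the threshold, 6 lost and 1 gained a call, and 11 changed sign, the cause of which was not tested; all changes of sign were in members near 0. ERF034 went to -0.129 with the replicate block and without Col-0 replicate 3, to -0.01 without GFP-GrxS5 replicate 2 and to -0.001 with the GC and length correction. ERF008 went to 0.098, 0.04 and 0.029 without Col-0 replicates 1 and 2 and GFP-GrxS5 replicate 1, and to 0.156 without both libraries numbered 1. ERF5 went to -0.319 without Col-0 replicate 1, -0.308 without GFP-GrxS5 replicate 2 and -0.042 with the GC and length correction. Over the removal of single libraries ERF034 ran from -0.129 to 0.207, ERF008 from -0.224 to 0.098 and ERF5 from -0.319 to 0.421. Below about 1 FPKM the members rest on a few fragments, and differences there were not detectable at this depth.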
